A study of Homo sapiens with 4 samples.

Results

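Adrenomedullin and the stanniocalcins are secreted peptide hormones, and their genes were followed together with those of the adrenomedullin receptor in OVSAYO cells, a human line established from an ovarian clear cell carcinoma. The group was fixed by name as ADM, ADM2, CALCRL, RAMP1, RAMP2, RAMP3, STC1 and STC2. A spot belonged to it when the RefSeq accession printed for the spot paired with one of these symbols. This gave 8 probes on 17 spots for 7 of the 8 genes, among 41000 probes and 43376 spots for 17721 named genes in all. ADM had 1 probe printed on 10 spots, STC2 had 2 probes, and the other genes had 1 probe each. ADM2 was not analysed here.

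The cells had been transfected with a non-specific control siRNA (NS-si) or with a pool of siRNAs, per the labels, against the transcription factor Sp1 (Sp1-si), and cultured for 40 h per the labels, where a legend of the study gives a shorter time. They were then kept for 4 h with 0.5 mM CoCl2, a hypoxia-mimicking agent (NS-si → CoCl2 and Sp1-si → CoCl2), or without it. The design asks which genes respond to CoCl2 and whether the response needs Sp1. Each of the 4 conditions was 1 RNA on 1 single-colour Agilent array, all on 1 slide, so there is no replicate and no test was made, and precision is limited by having 4 arrays.

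Adrenomedullin is a vasodilator peptide that acts on the calcitonin receptor-like receptor (CALCRL), a G protein-coupled receptor that reaches the cell surface only with a receptor activity-modifying protein. With RAMP2 or RAMP3 it binds adrenomedullin, and with RAMP1 it binds calcitonin gene-related peptide. STC1 and STC2 are glycoprotein hormones first known from calcium regulation in fish, and STC2 also inhibits the protease PAPPA, which frees insulin-like growth factors from their binding proteins. ADM and STC2 are known targets of hypoxia-inducible factors (HIFs), which bind DNA at the letters ACGTG or GCGTG. Sp1 binds GC boxes, of which GGGCGG is the common form.

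The promoters of ADM and STC2 are shown because these genes had the largest CoCl2 ratios of the group. RefSeq gave promoters for 5 of the 8 genes (ADM, ADM2, CALCRL, RAMP3 and STC2), each covering 300 bases around the start site on GRCh38.p14. Both lie on the strand of their gene, 5′ to 3′. Capitals mark every match to these letters, the hypoxia core or the GC box, on either strand, so a match on the other strand reads as its reverse complement. The window of ADM is chr11:10304823-10305122 on the + strand, and that of STC2 is chr5:173328365-173328664 on the − strand.
ADM: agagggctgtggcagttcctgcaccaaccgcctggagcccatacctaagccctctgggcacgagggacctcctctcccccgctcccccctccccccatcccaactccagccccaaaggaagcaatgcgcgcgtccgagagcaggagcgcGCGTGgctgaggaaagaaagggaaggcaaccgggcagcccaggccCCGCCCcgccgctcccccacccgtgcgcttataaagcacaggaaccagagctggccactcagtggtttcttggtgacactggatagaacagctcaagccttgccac
STC2: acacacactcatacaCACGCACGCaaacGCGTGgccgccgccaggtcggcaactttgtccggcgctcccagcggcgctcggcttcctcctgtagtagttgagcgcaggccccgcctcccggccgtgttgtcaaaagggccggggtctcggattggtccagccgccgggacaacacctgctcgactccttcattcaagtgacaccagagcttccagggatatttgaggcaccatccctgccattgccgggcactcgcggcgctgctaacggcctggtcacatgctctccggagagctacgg
ADM held 1 GCGTG at -101 from the start site and 1 GC box on the other strand at -56. STC2 held 3 matches to GCGTG, at -235 and -231 on the other strand, where they share a base, and at -222. STC2 held 0 matches to GGGCGG. The letters of the hypoxia core were in 48.4% of all 35116 promoters and those of the GC box in 45.0%, so a match is a description and not a site. CALCRL held neither motif, ADM2 held 1 hypoxia core and 3 GC boxes, and RAMP3 held 2 and 3.

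The arrays detected like numbers of spots, and SP1 itself was low on both Sp1-si arrays. Between 33081 and 34542 spots were well above background by the call of the scanner software, and the 75th percentile of the signals lay between 977 and 1285. The SP1 probe printed on 10 spots had a signal of 553 with NS-si, 39.2 with Sp1-si, 429 with NS-si → CoCl2 and 38.7 with Sp1-si → CoCl2. The epithelial and clear cell carcinoma markers KRT8, KRT18, EPCAM, PAX8 and NAPSA were well above background on all 4 arrays, although NAPSA had a log2 ratio of -2.33 in Sp1-si relative to NS-si cells. Of 4 endothelial markers, VWF was above background and PECAM1, CDH5 and TEK were not on any array. DCN of 3 fibroblast markers, and CD14 and CD3E of 3 leukocyte markers, were above background. In such bulk RNA, fewer cells and less RNA per cell cannot be told apart.

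Signals below are processed intensities before scaling, and every log2 ratio was taken after the 75th percentile of each array had been subtracted on the log2 scale. The ± value is the SD of the ratio between spots, taken for a probe with 1 spot from 10-spot probes of like signal, so it covers error within an array only. A probe was counted as changed past 2-fold, with its brighter side well above background.

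ADM rose with CoCl2 in cells of both kinds, and was low in Sp1-si cells before CoCl2. Its mean signal was 47271 with NS-si, 16629 with Sp1-si, 275160 with NS-si → CoCl2 and 233149 with Sp1-si → CoCl2. The 10 spots of an array repeat 1 RNA, so their spread covers error within that array only. In the order above, they ran from 43619 to 50957, from 15542 to 17864, from 258160 to 293515 and from 224898 to 239885. The highest spot reached 45.0% of the saturation value of the scanner, so no ADM spot was saturated. With CoCl2, ADM rose 6.81-fold in NS-si cells (log2 ratio 2.77 ± 0.14, SD over 10 spots), and 28 of 31313 probes above background on both arrays (0.0894%) had a ratio as high, itself included. In Sp1-si cells the ratio was 3.59 ± 0.079, or 12.0-fold, and 16 of 30685 probes (0.0521%) reached it.

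The level of ADM differed more between cells of the 2 kinds without CoCl2 than with it. Without CoCl2, Sp1-si cells had 2.74-fold less ADM signal than NS-si cells (log2 ratio -1.45 ± 0.016), and every spot lay between -1.48 and -1.43. With CoCl2 it was 1.55-fold lower (-0.63 ± 0.059), which is under 2-fold, and 18.9% of probes were as low or lower. Over the other processing settings this log2 ratio ran from -0.64 to -0.24, the last without scaling. The CoCl2 ratio was thus larger by 0.82 ± 0.067 on the log2 scale in Sp1-si cells, and 2.09% of 30234 probes had a difference as high. That difference passed 2-fold without scaling, at 1.27, but the median difference of all probes was then 0.44.

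**Figure D1:**
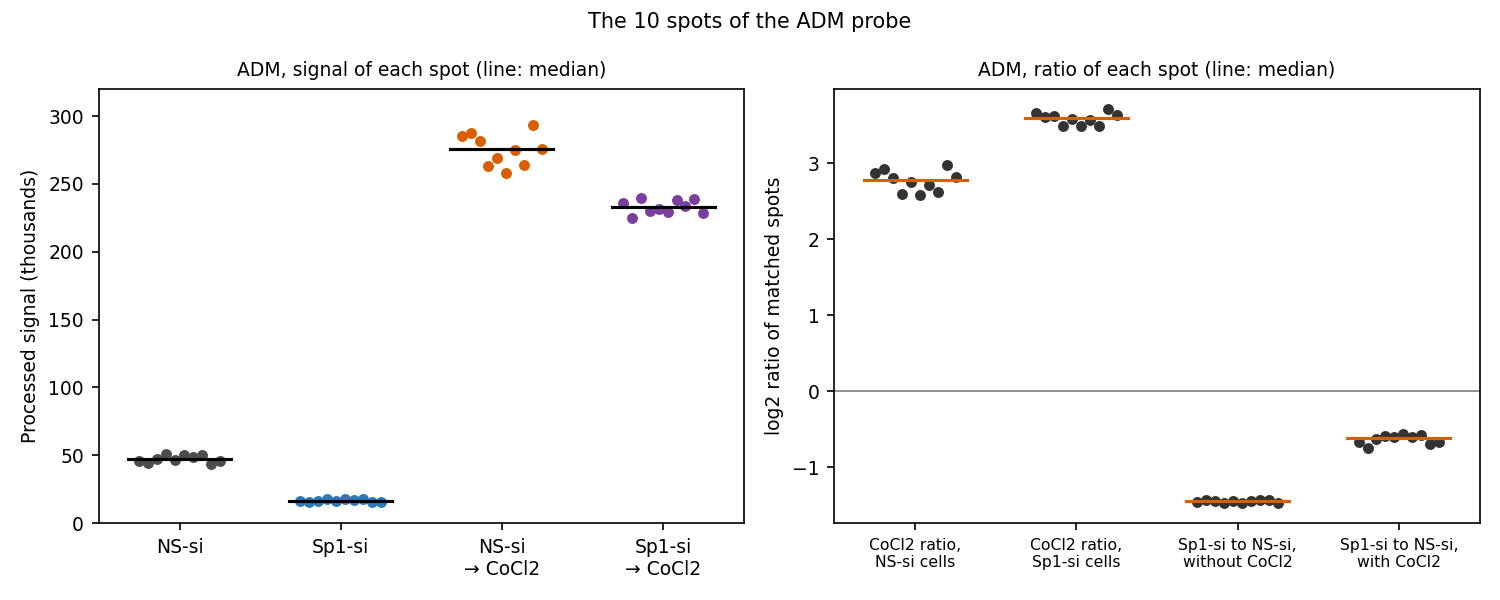
ADM on its 10 spots per array. The left panel gives the processed signal of each spot with the median as a bar, and the right panel gives the log2 ratio of each matched spot. The spots of an array repeat 1 RNA, and the unscaled signals are lowest in Sp1-si cells and highest in NS-si → CoCl2 cells.

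STC2 also rose with CoCl2 in cells of both kinds, and both of its probes showed it. The probe A_23_P110686 read 110 with NS-si, 57.0 with Sp1-si, 819 with NS-si → CoCl2 and 615 with Sp1-si → CoCl2. The probe A_23_P416395 read 24.0, 26.9, 193 and 277 in the same order. Each signal was from 1 spot on 1 array, and on each probe it was higher with CoCl2 in cells of both kinds. The first probe rose 8.69-fold with NS-si (3.12 ± 0.059) and 9.24-fold with Sp1-si (3.21 ± 0.056). The second probe rose 9.43-fold (3.24 ± 0.099) and 8.79-fold (3.14 ± 0.086). In NS-si cells 15 and 8 of 31313 probes had ratios as high. Under normexp, another background correction, the first probe gave 2.58 and 2.30 and the second 1.84 and 1.85, in NS-si and Sp1-si cells respectively, still past 2-fold but smaller. The CoCl2 ratio in Sp1-si cells minus that in NS-si cells was 0.09 ± 0.082 on the first probe and -0.10 ± 0.13 on the second.

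The STC2 probes disagreed on the effect of Sp1 siRNA. In Sp1-si cells the first was 1.86-fold below its NS-si level (-0.90 ± 0.060) and 1.75-fold lower with CoCl2 (-0.81 ± 0.054). The second gave 0.22 ± 0.081 and 0.12 ± 0.10. None of these values passed 2-fold, so no direction between Sp1-si and NS-si cells is given for STC2.

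STC1, the paralogue of STC2, was dim and behaved differently. Its signal was 11.0 with NS-si, 35.1 with Sp1-si, 17.5 with NS-si → CoCl2 and 32.1 with Sp1-si → CoCl2, well above background on all 4 arrays. Each signal was from 1 spot on 1 array, and it was higher with Sp1-si than with NS-si both without and with CoCl2. Without CoCl2, STC1 was 3.31-fold higher in Sp1-si cells (1.73 ± 0.18), and with CoCl2 1.40-fold higher (0.48 ± 0.17). With CoCl2, NS-si cells gave a ratio of 0.89 ± 0.17 and Sp1-si cells one of -0.35 ± 0.16, neither past 2-fold, and their difference was -1.25 ± 0.24. Of 30234 probes, 2.39% had a difference as low. The signals lay near background, and with normexp the ratio of Sp1-si to NS-si cells was 0.57 without CoCl2 and -0.06 with it, where the direction turned, and the difference was -0.63, all under 2-fold. Without scaling, the difference was -0.80, and the median of all probes was 0.44.

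The receptor genes were dim or changed little. CALCRL was well above background only in NS-si cells, at a signal of 18.9, against 1.90 with Sp1-si, 7.95 with NS-si → CoCl2 and 2.91 with Sp1-si → CoCl2. It was at least 2.71-fold lower in Sp1-si cells than in NS-si cells, and 2.03-fold lower in NS-si → CoCl2 cells (-1.02 ± 0.35). A bound was computed from the lowest signal well above background on the dim array or the signal of the probe there, whichever was higher. For NS-si → CoCl2 cells the probe signal was the higher, so 2.03-fold is the ratio itself and not a minimum. Both calls were lost with the normexp correction and when both arrays had to be above background, and the second also with scaling to spike-in spots. RAMP2, the partner for the main adrenomedullin receptor, read between 1.55 and 2.31, well above background on none of the 4 arrays, and has no ratio.

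RAMP1 and RAMP3 stayed within 2-fold in every comparison. RAMP1 read 110, 96.5, 98.2 and 108 in NS-si, Sp1-si, NS-si → CoCl2 and Sp1-si → CoCl2 cells. Its log2 ratios ran from -0.25 ± 0.083 for Sp1-si → CoCl2 to NS-si → CoCl2 to 0.06 ± 0.074 for CoCl2 in NS-si cells. RAMP3 read 11.3, 12.4, 11.1 and 16.0, with log2 ratios from 0.12 ± 0.24 to 0.20 ± 0.26. Of these ratios, the sign held under all settings only without CoCl2, for RAMP1 from -0.19 to -0.04 and for RAMP3 from 0.13 to 0.22 (Sp1-si to NS-si). The others turned under no scaling, another scaling or the normexp correction.

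**Figure D2:**
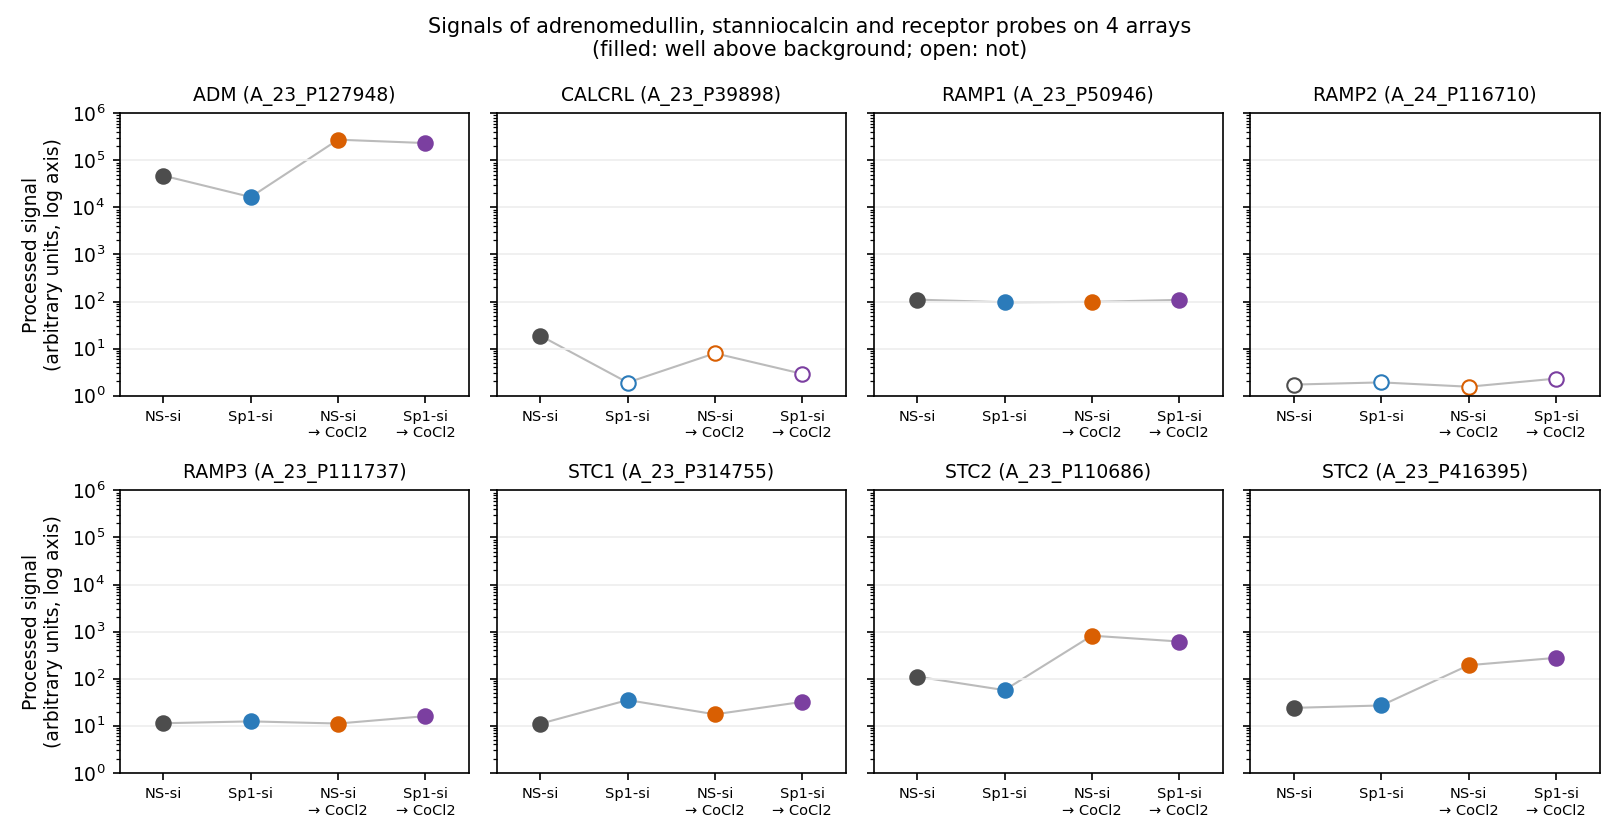
Processed signal of each probe (log axis, unscaled) on the 4 arrays. Filled points are well above background and open points are not, and the lines only join the 4 conditions of a probe. ADM and both STC2 probes are highest on the CoCl2 arrays, and RAMP2 is open throughout.

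Counted over the group, 3 of the 7 probes that could be called rose with CoCl2 in NS-si cells (ADM and both of STC2) where 5.23% of all 32875 probes did, and 1 (CALCRL) fell where 4.97% did. In Sp1-si cells 3 of 6 rose against 3.96% of all probes and 0 fell against 7.64%. In Sp1-si relative to NS-si cells without CoCl2, 1 of 7 was higher (STC1) against 6.26% and 2 were lower (ADM and CALCRL) against 6.39%. With CoCl2, 0 of 6 were higher or lower, against 6.77% and 11.2%. The CoCl2 ratios differed past 2-fold for 1 of 6 probes, STC1, which was lower in Sp1-si cells, as for 4.87% of all probes, whereas 1.05% of all were higher. The probes were few and chosen by name with earlier values known, so these counts are descriptive. Without scaling, the split of all probes by CoCl2 was 1131 up and 2567 down with NS-si (1718 and 1635 with it) and 2137 and 1641 with Sp1-si (1297 and 2503). Likewise it was 4709 and 1863 for Sp1-si to NS-si with CoCl2 (2208 and 3666) and 1945 and 358 for the difference (317 and 1471). Without scaling the median of all probes was -0.21, 0.21, 0.33 and 0.44 in these comparisons. With spike-in scaling the last 3 splits were 2096 and 1665, 3013 and 2807, and 524 and 1036.

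**Figure D3:**
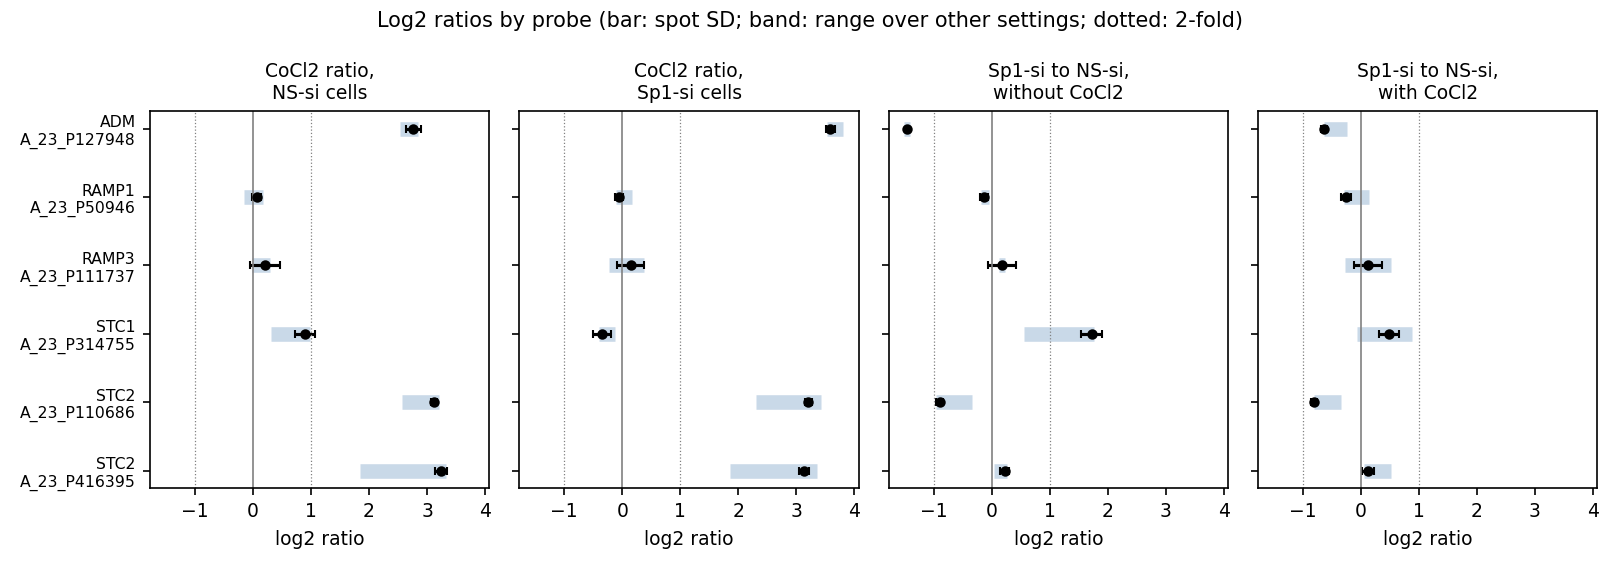
Log2 ratios of the probes for CoCl2 in NS-si cells, CoCl2 in Sp1-si cells, and Sp1-si to NS-si without and with CoCl2. Points are the values, bars the spot SD, grey bands the range over the other processing settings, and dotted lines 2-fold. ADM and both STC2 probes lie past the upper line in both CoCl2 panels under every setting.

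ADM and STC2 were compared with other genes known to depend on the hypoxia response element (HRE), the DNA site of HIFs. Of 18 HRE genes, 17 were measured, and 16 of these rose with CoCl2 in NS-si cells, as did 16 in Sp1-si cells, with medians of 1.86 and 2.22, beside 0.00 for all genes in NS-si cells. Among all genes by their brightest probe, 4.73% rose and 3.91% fell with CoCl2 in NS-si cells, and 3.87% and 4.71% in Sp1-si cells. The ratio of 3.77 for PFKFB4, which makes a regulator of glycolysis, was the highest of the list in NS-si cells, and it was 4.25 in Sp1-si cells. ANKRD37 had 2.40 and 3.63, and VEGFA, the angiogenic factor, had 2.34 and 2.86. The metastasis suppressor NDRG1 had 2.24 and 2.45, INSIG2 had 2.16 and 2.22, and the histone demethylase KDM3A had 2.15 and 2.59. In NS-si cells, PFKFB4 was the only 1 of the 17 with a ratio above those of ADM and STC2. The median difference between the CoCl2 ratios was 0.44 over the list and 0.02 over all genes, and 0.82 for ADM. ANKRD37 and PDK1, which restrains pyruvate use, were past 2-fold in that difference at 1.23 and 1.09, where 1.05% of all probes were higher. The difference was above 0 for 13 of the 17 genes. It was below 0 for SLC2A1 (-0.91), PFKFB3 (-0.47), MXI1 (-0.26) and EGLN1 (-0.19). SLC2A1 had CoCl2 ratios of 1.24 with NS-si and 0.33 with Sp1-si. VEGFA (-1.81) and HK2, the hexokinase (-1.04), were lower in Sp1-si than NS-si cells without CoCl2. There, 1 (MXI1, 1.64) of the 17 was higher. Among all genes, 6.81% were higher and 6.58% lower. With CoCl2, VEGFA stayed past 2-fold lower at -1.29 and HK2 had -0.42, beside -0.63 for ADM. MXI1 had 1.38 there, and 7.56% of all genes were higher and 9.02% lower. These values are from the brightest probe of each gene. Without CoCl2, a second INSIG2 probe gave -1.06 against -0.75. In Sp1-si relative to NS-si cells with CoCl2, another HK2 probe gave -2.40 against -0.42. The further VEGFA probes gave -2.25, -1.30 and -1.60 there. For the difference of the CoCl2 ratios, another HK2 probe gave -1.08 against 0.62, and another VEGFA probe -0.40 against 0.53. Another PFKFB3 probe gave -1.04 against -0.47. Further probes of INSIG2, KDM3A, LDHA, NDRG1 and PDK1 had positive differences.

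**Figure D4:**
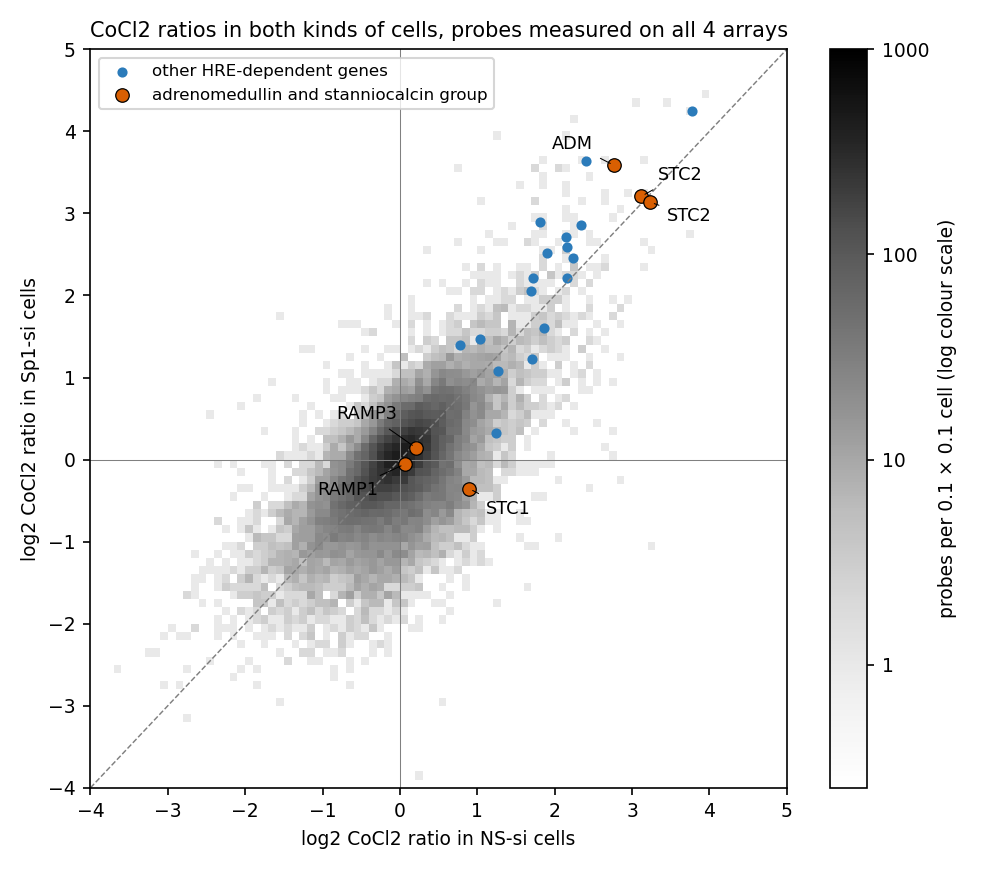
Log2 CoCl2 ratio in NS-si cells (horizontal) against that in Sp1-si cells (vertical). Grey shows the number of all probes, orange the adrenomedullin and stanniocalcin group, blue the 17 HRE genes, and the dashed line equal ratios. ADM lies above the line at 2.77 and 3.59, and STC1 below it at 0.89 and -0.35.

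The same pattern was looked for across probes. Of 30234 probes above background on all 4 arrays, 608 (2.01%) rose past 2-fold with CoCl2 in both NS-si and Sp1-si cells. Of these, 82 (13.5%) were also lower past 2-fold in Sp1-si than NS-si cells without CoCl2, as ADM was. Of the 33060 probes that could be called in that comparison, 6.39% were lower. A low value on the Sp1-si array enters both conditions, so the 13.5% is not an independent share. Of the 82, 25 (4.11% of the 608) were in addition within 2-fold with CoCl2. The CoCl2 ratio was larger in Sp1-si cells for 319 of the 608 (52.5%). By the largest absolute difference over the log2 ratios of the other 3 arrays to NS-si, the gene most like ADM was OVOL1, a zinc finger transcription factor, at 0.27. SPDYA, a cell cycle regulator, was at 0.62, EFNA3, an ephrin ligand, at 0.70, INSIG2, a sterol sensor partner, at 0.70 and ANKRD37 at 0.77. The gene most like STC2 on its first probe was also OVOL1, at 0.50, before FAM110C at 0.59, ANKRD37 at 0.72, SPDYA at 0.79 and HILPDA, of lipid droplets, at 0.82. OVOL1 read 1822, 669, 9779 and 7461 in NS-si, Sp1-si, NS-si → CoCl2 and Sp1-si → CoCl2 cells.

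Of 18 other genes of the calcitonin and adrenomedullin pathway, 15 were measured, and 1 rose and 0 fell with CoCl2 in NS-si cells (4.73% and 3.91% of all genes) and likewise in Sp1-si cells (3.87% and 4.71%). That gene was CALCR, the calcitonin receptor itself, with signals of 144, 45.1, 364 and 120 and CoCl2 ratios (log2) of 1.57 with NS-si and 1.19 with Sp1-si. CALCR was lower in Sp1-si cells both without (-1.62) and with CoCl2 (-2.00). MME, a membrane peptidase that degrades adrenomedullin, read 53.6, 278, 48.3 and 385 and was higher in Sp1-si cells by 2.43 without and 2.60 with CoCl2, and a further probe gave 2.58 and 2.58. With CoCl2, 1 of the 15 was higher and 1 lower in Sp1-si than NS-si cells, beside 7.56% and 9.02% of all genes. ADCY3 (-1.23) and PRKACB (-1.01), of cyclic AMP signalling, were lower in Sp1-si cells without CoCl2, where 6.58% of all genes were lower. With CoCl2 they had -0.99 and -0.40. PAM, which amidates the C-terminus of adrenomedullin, had ratios of 0.27 with CoCl2 in cells of both kinds. ACKR3, a scavenger receptor for adrenomedullin, was well above background on none of the 4 arrays. The median CoCl2 ratio of the list was 0.04 with NS-si and 0.15 with Sp1-si.

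Of 13 genes around the stanniocalcins, 8 were measured and none of these 8 passed 2-fold with CoCl2 in NS-si or Sp1-si cells, where medians were -0.09 and 0.08. Of all genes, 4.73% rose and 3.91% fell with CoCl2 in NS-si cells, and 3.87% and 4.71% in Sp1-si cells. A count of 0 among 8 genes is near these shares. PAPPA, the protease that STC2 inhibits, had -0.11 and 0.12. ORAI1, the store-operated calcium channel, had -0.78 in NS-si cells. Without CoCl2, SLC34A2, a phosphate transporter (-1.44), and MCU, the mitochondrial calcium channel (-1.11), were lower in Sp1-si than NS-si cells. With CoCl2 these genes had -1.29 and -0.65. Among all genes, 6.58% were lower without CoCl2 and 9.02% with it. PAPPA2, IGFBP4, IGFBP5, IGF1 and CASR were well above background on none of the 4 arrays.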

How the data were processed

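RNA of OVSAYO cells was measured on 4 single-colour Agilent whole human genome arrays (design 014850), 1 per condition, and grouped by the labels. The deposited intensities are the processed signals of Agilent Feature Extraction 10.5.1.1, with the background subtracted and trends removed, and not scaled between arrays. The study names no normalization. The value table deposited by the authors equals this signal times 1 constant per array (1.43, 1.52, 1.58 and 1.25), whose purpose is not stated, with medians of 216, 220, 204 and 197 per column, and is used as an alternative. The arrays are annotated on hg18, so no probe coordinates are given.

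Log2 signals minus the 75th percentile of non-control spots were averaged over the spots of a probe, leaving out outlier spots. A probe was well above background when at least 50% of its spots were. Probes past 2-fold with the brighter side well above background were counted. The ± value is the SD over matched spots of 10-spot probes, or the median SD of the 50 nearest of 264 such probes by signal. Symbols came from RefSeq accessions, and 28463 of 29877 spots with such an accession matched. The genes and lists were chosen with earlier results of these data known. Named are all probes of the group, list genes past 2-fold with CoCl2 (up to 6 per list by size of the NS-si ratio), and the 5 genes most like ADM and STC2. Genes named beyond that were chosen after their values were seen.

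Alternatives were 11 planned settings (other scalings and thresholds) and 2 added after the data were seen (normexp on the median signals and scaling to spike-in spots). Counting was tested on simulated data. 1 marker is not reported here. The correction was run with limma 3.58.1 in R 4.3.3, and all else in Python 3.11.15 with pandas 2.3.3, numpy 2.4.6 and matplotlib 3.10.9.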

Additional observations from a re-analysis of the deposited data

Results flagged for a closer look

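STC1 had CoCl2 ratios of opposite sign, 0.89 with NS-si and -0.35 with Sp1-si, so that the ratio was lower in Sp1-si cells by -1.25 on the log2 scale. With 1 array each, the difference was not tested.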

How the results depend on the processing

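ADM and both STC2 probes rose past 2-fold with CoCl2 in NS-si and Sp1-si cells under all 12 settings tried on calls, with log2 ratios from 2.54 to 2.85 and from 3.53 to 3.81 for ADM, from 2.58 to 3.20 and from 2.30 to 3.43 for the first STC2 probe, and from 1.84 to 3.32 and from 1.85 to 3.36 for the second, the lowest STC2 values under normexp. The lower ADM level in Sp1-si cells ranged from -1.51 to -1.41 without CoCl2 and from -0.64 to -0.24 with it. With normexp, the count of probes past 2-fold in Sp1-si relative to NS-si cells without CoCl2 was 1 rather than 3, and that of the difference was 0 rather than 1. With a 1.5-fold threshold, the count with CoCl2 was 2 rather than 0 and that of the difference was 2 rather than 1. At that threshold 4870 of all 32604 probes were higher and 7585 lower in Sp1-si than NS-si cells with CoCl2. For the difference, 1668 of 30234 probes were higher and 3804 lower, so these member counts show nothing particular to the group. The other 61 counts were within 1.5 times of the main ones. Without scaling, however, the 1 probe past 2-fold in the difference was ADM, higher at 1.27, in place of STC1, lower. The median difference of all probes was 0.44 without scaling. No value called in the main setting changed sign. Over all probes, normexp gave 692 higher and 386 lower with CoCl2 in NS-si cells (1718 and 1635), 588 and 861 in Sp1-si cells (1297 and 2503), and 877 and 818 for Sp1-si to NS-si without CoCl2 (2071 and 2113), 978 and 1713 with CoCl2 (2208 and 3666), and 68 and 749 for the difference (317 and 1471). Median and quantile scaling gave 461 and 1158, and 474 and 1188, for the difference. The cause was not tested. Signals of CALCRL, RAMP2, RAMP3 and STC1 near background limit what can be read from them. The planned normexp on mean signals was not run, and median signals were used in its place. No paired analysis was possible because each condition has 1 array.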

Other observations

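Other secreted peptide hormones were also measured. Of 18 such genes, 14 were measured in NS-si cells, where 2 rose with CoCl2 and 0 fell (4.73% and 3.91% of all genes). In Sp1-si cells 2 of 13 rose and 2 fell (3.87% and 4.71%), of which NPPB, B-type natriuretic peptide, rose by 1.12 and UCN, urocortin, had -1.12. NPPC, C-type natriuretic peptide, had signals of 8.33 with NS-si, 7.61 with Sp1-si, 23.8 with NS-si → CoCl2 and 23.3 with Sp1-si → CoCl2. Its CoCl2 ratios were 3.34-fold with NS-si (1.74 ± 0.23) and 2.62-fold with Sp1-si (1.39). The arrays without CoCl2 were not well above background, and these ratios are not minimums. NPPA, atrial natriuretic peptide, was counted too, but its bound was at least 1.65-fold. EDN1, endothelin 1, had signals of 432, 390, 190 and 99.4, and its CoCl2 ratio was -0.96 with NS-si and -2.20 with Sp1-si. With CoCl2, 7 of the 14 were lower in Sp1-si than NS-si cells and 0 were higher, beside 9.02% and 7.56% of all genes. The split of all probes in this comparison turned without scaling, to 4709 higher and 1863 lower.

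Of 13 genes of ATF4 and the unfolded protein response, 3 rose with CoCl2 in NS-si cells, the transcription factor ATF3 (2.68), TRIB3 (1.83) and DNAJB9 (1.38), with a median of 0.42 over the list, and 4.73% of all genes rose. In Sp1-si cells 2 rose, ATF3 (2.32) and TRIB3 (1.40), with a median of 0.08, and 3.87% of all genes rose. ASNS, asparagine synthetase, was lower in Sp1-si cells both without (-1.84) and with CoCl2 (-1.92), where 6.58% and 9.02% of all genes were lower.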
